A study of Mus musculus with 14 samples.

Results

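The enzymes described here carry out the committed part of cholesterol synthesis, in which farnesyl diphosphate is joined to squalene and squalene is turned, by way of lanosterol, into cholesterol. The 9 genes are Fdft1, Sqle, Lss, Cyp51, Msmo1, Nsdhl, Hsd17b7, Sc5d and Dhcr7. Their probe sets were taken from the array annotation by gene symbol alone, whatever their values. The genes themselves were chosen with earlier results of these data known. They are represented by 12 of the 12488 probe sets on the array, with 3 probe sets for Nsdhl, 2 for Sc5d and 1 for each other gene. All 12 were among the 7227 probe sets that passed the filter on low signal, so no member is missing from the tests. Cyp51 and the Nsdhl probe set 93868_at, the members with the lowest values, exceeded the filter level of 184.8 on every array of 3 of the 4 groups and on some arrays of the fourth, the dwarf mice of 6 months.

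Liver RNA was measured in Snell dwarf mice, mutant for the pituitary transcription factor gene Pit-1 and labelled as long-lived dwarfs, and in wild type control mice. The groups were dwarf mice of 6 months (n = 4), wild type mice of 6 months (n = 4), dwarf mice of 22 months (n = 3) and wild type mice of 22 months (n = 3), with 1 mouse on each Affymetrix array. The labels give no sex, strain background, diet, hour of death or batch, and the mutation is present in every cell of the dwarf mice, so that effects in the liver and effects of the missing pituitary hormones are measured together. The p-values below measure the spread between these 14 mice.

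Cholesterol synthesis in liver is set mainly by the amount of its enzymes. When sterols in the endoplasmic reticulum are scarce, the sterol regulatory element binding proteins (SREBPs) are cut free, enter the nucleus and switch on nearly every gene of the pathway, and when sterols are plentiful they are held back. The same genes also respond to feeding, insulin and thyroid hormone, and their messenger RNA in liver varies over the day.

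Each value is a signal, the brightness of a probe set on a linear scale as the authors deposited it, and each difference is a log2 difference with its standard error from a linear model fitted with limma to all 14 arrays. A fold difference is that log2 difference put back on the linear scale. It compares means of log2 signal, so it can differ from the ratio of the linear means that are printed. A probe set is said to be higher or lower where the Benjamini-Hochberg adjusted p over all 7227 probe sets was under 0.05. The arrays had been scaled to the same 2% trimmed mean of 500.4, but their median signals differed. At 6 months the medians were 186.85 to 221.05 in dwarf and 174.85 to 183.2 in wild type mice, without overlap. At 22 months they were 166.8 to 187.1 in dwarf and 170.55 to 186.3 in wild type mice. The arrays differed by age in a control for 18S ribosomal RNA, which read 418.4 to 1048.6 in dwarf and 339.8 to 4852.8 in wild type mice of 22 months, against 60.8 to 217.4 in dwarf and 74.5 to 587.6 in wild type mice of 6 months. The value of 587.6 belongs to wild type animal 88, and no other 6-month array exceeded 217.4. Beta-actin control probes near each end of the transcript give a 3' to 5' ratio that is higher where RNA or labelled product is shorter. This ratio was 2.29 to 2.69 in dwarf and 1.16 to 2.38 in wild type mice of 6 months, and 1.25 to 1.57 in dwarf and 1.52 to 1.74 in wild type mice of 22 months. Gapdh control probes gave a ratio of 1.31 to 1.77 in dwarf and 0.81 to 1.76 in wild type mice of 6 months. At 22 months it was 0.82 to 0.97 in dwarf and 0.96 to 1.12 in wild type mice. The 3' to 5' covariate used below is the mean of the log2 ratios of beta-actin and Gapdh.

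Markers of hepatocytes were bright on every array. The summed signal of 7 hepatocyte markers was 169246 to 243058 in dwarf and 130352 to 156182 in wild type mice of 6 months, and 130477 to 153013 in dwarf and 127394 to 160159 in wild type mice of 22 months. At 6 months 3 of these 7 genes (Alb, Apoa1 and Cyp2e1) and 3 of 4 tested endothelial markers (Kdr, Ramp2 and Stab1) were higher in dwarf mice, and their part in the results below was not tested. Among all tested probe sets 6.37% were higher and 6.95% lower at this age. Scaling each array to the same median cut the higher calls from 460 to 188, and the markers were not fitted again that way. The endothelial markers summed to 2557.8 to 3176 in dwarf and 1559.4 to 2124.4 in wild type mice of 6 months. Of the other lists, 1 of 4 tested stellate cell markers and 1 of 2 lymphocyte markers were higher, 1 of 2 erythroid markers was lower (Alas2, 5.57-fold, limma adjusted p = 7.72e-07), and none of 4 macrophage or 2 pancreatic markers was called in dwarf mice of 6 months. The bile duct markers Krt19, Krt7 and Epcam lay at or below the floor of 54.9 on all 14 arrays. In RNA of whole liver, fewer cells of a type and less RNA per cell cannot be told apart.

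Across the 4 groups the enzymes kept much the same order. The mean signal was lowest in dwarf mice of 6 months for 11 of the 12 probe sets and highest in wild type mice of 22 months for 10 of the 12. In 7 probe sets (Sqle, Lss, Msmo1, the Nsdhl set 93868_at, both Sc5d sets and Dhcr7) the means ran from dwarf mice of 6 months, through wild type mice of 6 months and dwarf mice of 22 months, up to wild type mice of 22 months. Sqle had the widest span, with a linear mean in wild type mice of 22 months 16.5 times that in dwarf mice of 6 months. The exception at the top of the pathway was Fdft1, whose mean was highest in dwarf mice of 6 months. Neighbours in these orders often overlapped: Sqle read 649.1 to 1157.9 in dwarf mice of 22 months and 510.1 to 998.5 in wild type mice of 6 months.

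**Figure D1:**
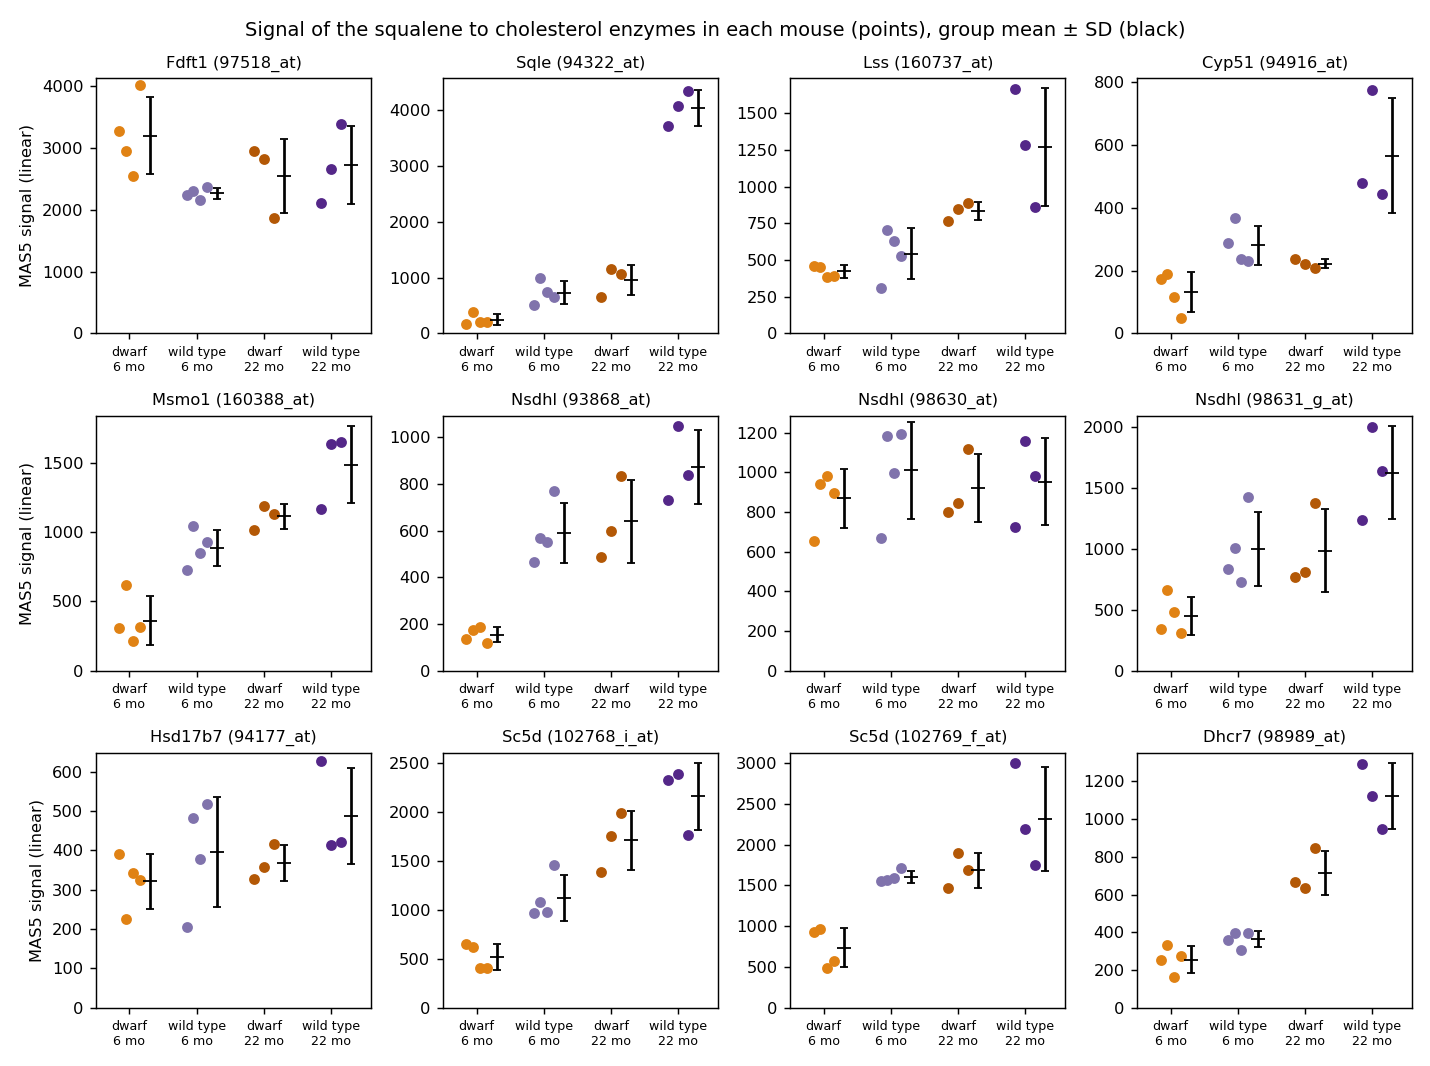
Signal of each of the 12 probe sets in each of the 14 mice, 1 panel per probe set, on a linear axis that starts at 0. Each point is 1 mouse, and the black mark with its bar is the group mean ± SD (n = 4 at 6 months and n = 3 at 22 months). The 3 wild type mice of 22 months stand apart for Sqle, at 3702.6 to 4333.3, while the Nsdhl set 98630_at shows overlapping groups.

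The start regions of the genes are shown because SREBPs act at short sequences there. Of the 9 members, 7 had an entry among the RefSeq promoters (assembly GRCm38.p6), which reach from 250 bases before to 50 bases after the annotated start, and Fdft1 and Sqle are named only. A sterol element was searched on both strands as TCACNNCA and, more strictly, as TCACNCCAC, and the binding site of nuclear factor Y, a partner of SREBPs, as CCAAT. The 5 promoters below belong to 4 enzymes that were lower in dwarf mice of 6 months and to Hsd17b7, which was not. They are written 5' to 3' on the gene's own strand, and capitals mark the matches on either strand. Cyp51 is at chr5:4104648-4104947 on the minus strand, Msmo1 at chr8:64733529-64733828 on the minus strand, Nsdhl at chrX:72918271-72918570 on the plus strand, Sc5d at chr9:42264251-42264550 on the minus strand and Hsd17b7 at chr1:169969156-169969455 on the minus strand.
Cyp51: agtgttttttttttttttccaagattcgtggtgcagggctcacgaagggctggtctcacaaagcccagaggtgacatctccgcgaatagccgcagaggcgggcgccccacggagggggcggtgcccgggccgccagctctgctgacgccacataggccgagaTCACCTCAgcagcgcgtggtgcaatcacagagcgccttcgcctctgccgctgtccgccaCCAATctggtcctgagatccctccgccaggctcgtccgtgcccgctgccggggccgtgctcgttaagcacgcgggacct
Msmo1: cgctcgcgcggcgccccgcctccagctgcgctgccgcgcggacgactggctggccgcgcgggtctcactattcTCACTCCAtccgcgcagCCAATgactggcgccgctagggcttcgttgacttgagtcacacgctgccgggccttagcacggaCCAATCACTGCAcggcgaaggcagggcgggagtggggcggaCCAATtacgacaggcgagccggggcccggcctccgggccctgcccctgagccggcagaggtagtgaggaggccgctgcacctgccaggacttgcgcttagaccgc
Nsdhl: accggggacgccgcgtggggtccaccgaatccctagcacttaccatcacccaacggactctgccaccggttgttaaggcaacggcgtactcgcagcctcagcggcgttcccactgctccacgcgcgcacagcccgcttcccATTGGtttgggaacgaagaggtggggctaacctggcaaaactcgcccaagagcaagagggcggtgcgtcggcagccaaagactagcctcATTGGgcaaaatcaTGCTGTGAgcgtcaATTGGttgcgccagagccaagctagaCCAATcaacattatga
Sc5d: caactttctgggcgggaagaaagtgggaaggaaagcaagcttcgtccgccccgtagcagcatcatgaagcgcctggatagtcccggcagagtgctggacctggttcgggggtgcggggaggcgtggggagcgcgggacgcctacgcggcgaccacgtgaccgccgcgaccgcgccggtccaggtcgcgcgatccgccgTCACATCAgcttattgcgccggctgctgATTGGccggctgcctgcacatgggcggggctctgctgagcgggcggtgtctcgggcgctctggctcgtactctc
Hsd17b7: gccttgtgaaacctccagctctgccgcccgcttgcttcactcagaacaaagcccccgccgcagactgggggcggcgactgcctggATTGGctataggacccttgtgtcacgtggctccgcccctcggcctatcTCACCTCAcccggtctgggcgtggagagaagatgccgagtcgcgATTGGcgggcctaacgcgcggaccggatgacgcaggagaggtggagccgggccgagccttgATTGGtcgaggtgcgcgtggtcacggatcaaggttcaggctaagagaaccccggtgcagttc

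The looser element TCACNNCA occurred in a window of 6 of the 7 genes, all but Lss, against 13.8% of the 32851 promoter windows of this length. In Cyp51 it read TCACCTCA at bases -88 to -81 from the start, and in Sc5d it read TCACATCA at bases -52 to -45. Msmo1 held TCACTCCA at -177 to -170 and TCACTGCA at -92 to -85, where the second shares 1 base with a CCAAT. Hsd17b7 held TCACCTCA at -117 to -110, the same letters as Cyp51. In Nsdhl the match lay on the other strand, read as TGCTGTGA along the gene, across the start itself at -6 to 2. No member held the strict TCACNCCAC, found in 1.24% of all windows, and CCAAT was in all 7 genes, against 37.4% of windows. Dhcr7 has 3 annotated starts, of which 2 held TCACNNCA, so it had more bases searched than a gene with 1 start. A match is a description of letters, not a measured binding site, and the motifs were written with these promoters in view.

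The first comparison asks how young adult dwarf livers differ from wild type livers of the same age. In dwarf mice of 6 months 7 of the 12 probe sets, from 5 of the 9 genes, were lower and none was higher. The 5 genes were Sqle, Cyp51, Msmo1, Nsdhl and Sc5d, with decreases between 2.18-fold and 3.84-fold. With each gene taken by its brightest probe set alone, 4 of the 9 genes were lower, because the brightest Nsdhl set was not called. Over all probe sets tested, 6.95% were lower, 6.37% were higher and 13.3% were called in either direction. The median log2 difference of the members was -1.15, against 0.10 over all tested probe sets (-0.10 after scaling each array to the same median).

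Fdft1 encodes squalene synthase, which joins a pair of farnesyl diphosphate molecules and so commits them to sterols. Its signal was 3280.3, 2957.3, 2542.1 and 4022 in dwarf mice of 6 months, against 2239, 2311.3, 2168.8 and 2369 in wild type mice of 6 months. Every dwarf value exceeded every wild type value, by 1.39-fold on average, but the difference did not pass (log2 difference 0.47 ± 0.18, limma adjusted p = 0.0918). It passed after quantile normalization, at 0.58 with a limma adjusted p of 0.0372. Fdft1 was the single member whose values were all higher in dwarf mice at this age, a pattern met by 9.31% of all tested probe sets.

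Sqle encodes squalene epoxidase, a rate-limiting step that adds oxygen to squalene. It read 167.3, 386.6, 209.3 and 212.5 in dwarf mice of 6 months, against 510.1, 998.5, 742.8 and 651.1 in wild type mice of 6 months. The highest dwarf mouse, animal 85, stayed below the lowest wild type mouse, and the mean was 3.04-fold lower in dwarf mice (log2 difference -1.61 ± 0.26, limma adjusted p = 0.000615). Lss, the lanosterol synthase that closes the sterol rings, read 460.9, 455, 384.1 and 388 in dwarf mice and 306.9, 704.2, 630 and 530.6 in wild type mice of 6 months. Wild type animal 82 lay below all 4 dwarf mice, the groups overlapped, and the difference did not pass (-0.30 ± 0.24, limma adjusted p = 0.422).

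Cyp51 is the cytochrome P450 that removes the first methyl group from lanosterol. Its signal was 173.2, 187.7, 116.5 and 49.3 in dwarf mice of 6 months, the last below the floor, against 285.8, 365.7, 236.7 and 231.3 in wild type mice of 6 months. The groups did not overlap and the dwarf mean was 2.29-fold lower (log2 difference -1.20 ± 0.33, limma adjusted p = 0.0256). This call depends on single mice: without wild type animal 82 or 84, or dwarf animal 87 or 89, the limma adjusted p was 0.0573, 0.0712, 0.057 or 0.0545, and with the compared groups fitted alone it was 0.0821.

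The next enzymes strip the pair of methyl groups from the fourth carbon of the sterol. Msmo1, the methyl sterol oxidase that starts this removal, read 306.3, 615.9, 211 and 311.7 in dwarf mice of 6 months, against 727.5, 1041.7, 847.2 and 923.9 in wild type mice of 6 months. The groups did not overlap, although animal 85 had a dwarf signal well above the other 3, and the mean was 2.63-fold lower in dwarf mice (log2 difference -1.39 ± 0.25, limma adjusted p = 0.00146). Hsd17b7, the keto-steroid reductase that ends each round, read 390.6, 226.2, 342.9 and 324.9 in dwarf mice and 206, 482, 377.1 and 516.9 in wild type mice of 6 months. Its groups overlapped over most of their range (-0.24 ± 0.27, limma adjusted p = 0.575).

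Nsdhl, the sterol dehydrogenase that takes off the oxidised carbon, is measured by 3 probe sets that gave different answers. Probe set 93868_at read 134.8, 173.9, 186.6 and 117.7 in dwarf mice of 6 months, against 465.3, 567.5, 552.5 and 771.2 in wild type mice of 6 months. This was the widest gap among the members at 6 months, 3.84-fold lower in dwarf mice (log2 difference -1.94 ± 0.22, limma adjusted p = 2.05e-05), with no dwarf value near the wild type range. Probe set 98631_g_at read 344.4, 660.7, 483.2 and 308.2 in dwarf mice and 833.2, 1012, 732.7 and 1426.1 in wild type mice of 6 months. It too did not overlap and was 2.26-fold lower in dwarf mice (-1.18 ± 0.27, limma adjusted p = 0.00908).

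The third Nsdhl set, 98630_at, did not differ beyond the spread. It read 653.9, 943.1, 983 and 895.4 in dwarf mice and 667, 1183.9, 997.4 and 1194.6 in wild type mice of 6 months, with overlapping groups and a log2 difference of -0.20 ± 0.21 (limma adjusted p = 0.56). The suffix of 98631_g_at marks a set whose probes can match several transcripts of a group of related sequences, and which of the 3 sets follows the Nsdhl transcript most closely was not tested.

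Sc5d encodes the desaturase that puts a double bond into the sterol ring, and Dhcr7 the reductase that yields cholesterol at the last step of one branch. The Sc5d set 102768_i_at read 645.7, 620.7, 404.1 and 407.8 in dwarf mice of 6 months, against 970.3, 1082.2, 974.3 and 1460 in wild type mice of 6 months. All dwarf values lay below all wild type values, and the mean was 2.18-fold lower (log2 difference -1.12 ± 0.20, limma adjusted p = 0.00128). The second set, 102769_f_at, was 2.27-fold lower in dwarf mice (-1.18 ± 0.21, limma adjusted p = 0.00148), at 491.9 to 959.9 in dwarf and 1553.4 to 1714.1 in wild type mice of 6 months. Both sets were made from the same database sequence, and their suffixes mark sets with fewer probes or with probes that can match related transcripts, so they are not independent.

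Dhcr7 read 253, 331.1, 164.4 and 274.6 in dwarf mice of 6 months, against 357.6, 397.6, 303.7 and 395.5 in wild type mice of 6 months. Dwarf animal 85 lay above the lowest wild type mouse, and the difference of -0.54 ± 0.20 did not pass (limma adjusted p = 0.089). It passed after median scaling, after quantile normalization and without animal 85, at limma adjusted p of 0.0314, 0.0454 and 0.0426. In all, 7 member probe sets had dwarf values wholly below wild type values at 6 months, the same 7 that were called, where 7.8% of all tested probe sets had no overlap in that direction. With the 3' to 5' ratio as a covariate 6 of these 7 calls held, Cyp51 moving to a limma adjusted p of 0.0506, and with the 18S signal as a covariate all 7 held.

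**Figure D2:**
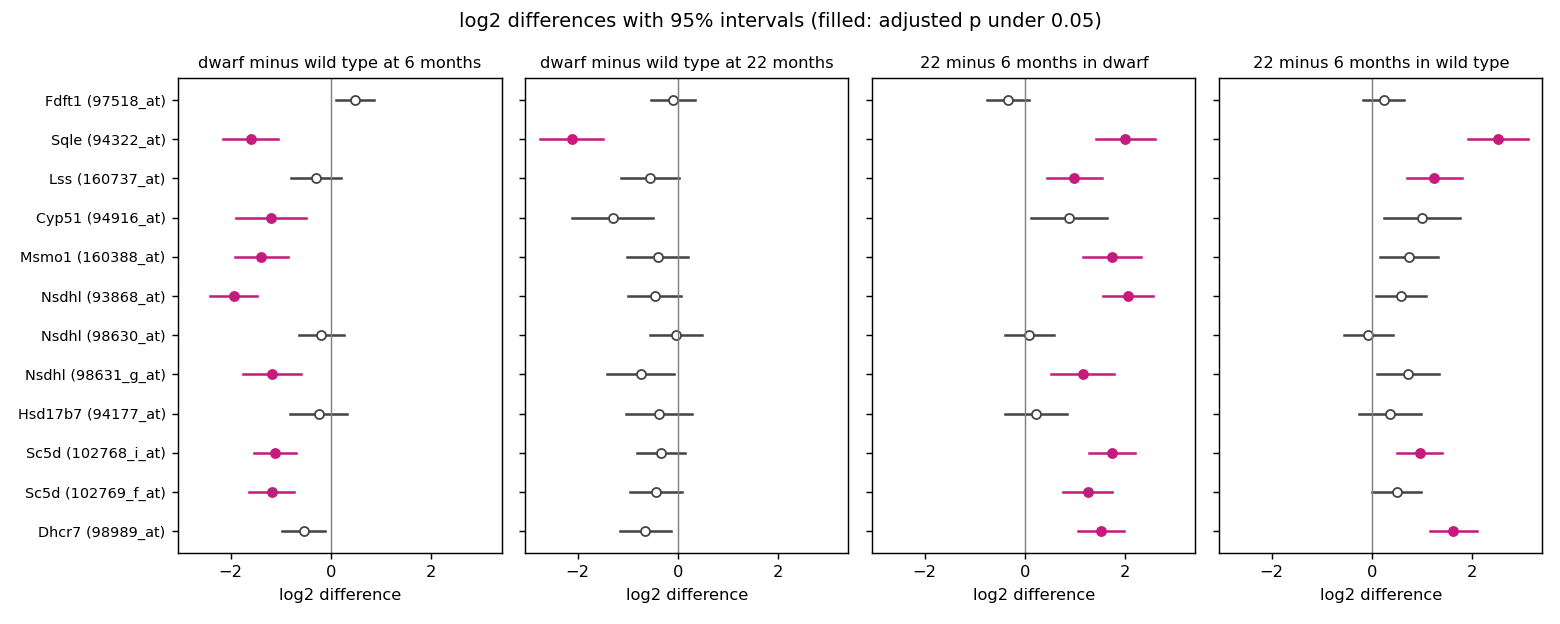
Log2 differences of the 12 probe sets with 95% intervals from limma, 1 panel per comparison. Filled points have an adjusted p under 0.05 over all 7227 probe sets and open points do not. At 6 months 7 points are filled below 0, at 22 months Sqle alone, and with age 8 points are filled above 0 in dwarf mice and 4 in wild type mice.

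At 22 months, where dwarf and wild type mice of the later age were compared, 1 enzyme was called. Sqle alone was lower in dwarf mice, and 1 of the 12 probe sets compares with 1.56% lower, 1.37% higher and 2.93% called in either direction over all tested probe sets. Sqle read 649.1, 1157.9 and 1061 in dwarf mice of 22 months, against 3702.6, 4064.3 and 4333.3 in wild type mice of 22 months. The highest dwarf mouse was far below the lowest wild type mouse, and the mean was 4.34-fold lower in dwarf mice (log2 difference -2.12 ± 0.30, limma adjusted p = 0.000429). This call held in every alternative that was run, including each fit without 1 array. Of the cell type markers, 1 of 4 tested macrophage markers was lower in dwarf mice of 22 months, the Kupffer cell receptor Clec4f (2.23-fold, limma adjusted p = 0.0196), and its part in the result was not tested.

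Cyp51 and Dhcr7 also had no overlap at 22 months, with all dwarf values below all wild type values, but did not pass. Cyp51 read 238, 220.1 and 207.7 in dwarf mice, against 477, 773.9 and 442.9 in wild type mice of 22 months (log2 difference -1.30 ± 0.38, limma adjusted p = 0.0889). It passed with array weights (limma adjusted p = 0.0244), with the compared groups fitted alone (limma adjusted p = 0.0226) and without the 6-month dwarf animal 89 (limma adjusted p = 0.0144), whose value below the floor enters the shared estimate of spread. Dhcr7 read 665.1, 632.9 and 849.2 in dwarf mice and 1294.6, 1124.2 and 946.1 in wild type mice of 22 months (-0.65 ± 0.23, limma adjusted p = 0.196). With 3 mice against 3, 11.5% of all tested probe sets had dwarf values wholly below wild type values, so 3 of 12 members is to be read against that share.

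The rest of the pathway overlapped between the genotypes at 22 months. Lss read 765.5, 847.6 and 886 in dwarf mice and 1660.5, 1282.7 and 863.1 in wild type mice of 22 months, wild type animal 24 lying among the dwarf mice (-0.56 ± 0.27, limma adjusted p = 0.421). The Nsdhl set 93868_at, the most different member at 6 months, read 485.9, 598.1 and 835.4 in dwarf mice and 731.9, 1047.1 and 838.9 in wild type mice of 22 months (-0.47 ± 0.25, limma adjusted p = 0.484). The set 98631_g_at read 771.5, 809.7 and 1381.2 in dwarf mice and 1237.6, 2005 and 1641.2 in wild type mice of 22 months (-0.75 ± 0.31, limma adjusted p = 0.304).

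Both genes that flank Nsdhl in the removal of methyl groups overlapped as well. Msmo1 read 1015.7, 1189.4 and 1129.8 in dwarf mice and 1166.1, 1636.7 and 1650.5 in wild type mice of 22 months, with a log2 difference of -0.40. Hsd17b7 ran from 326.9 to 416.1 in dwarf mice and from 413.3 to 627.1 in wild type mice of 22 months (-0.39). The Sc5d set 102768_i_at ran from 1386.7 to 1987 in dwarf and from 1766.5 to 2382.7 in wild type mice of 22 months (-0.34), and Fdft1 from 1862 to 2960.1 in dwarf and from 2118.9 to 3386.2 in wild type mice of 22 months (-0.10). None of these 4 differences passed. All 12 member differences were negative at 22 months, with a median of -0.45, against 0.01 over all tested probe sets.

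Next, dwarf mice of 22 months were compared with dwarf mice of 6 months, which asks how the pathway changes with age when Pit-1 is mutated. The dwarf mice of 6 months are the same 4 arrays as in the genotype comparison at 6 months, so the comparisons are not independent. Of the 12 probe sets, 8 were higher at 22 months and none was lower, from 6 genes: Sqle, Lss, Msmo1, Nsdhl, Sc5d and Dhcr7. Over all tested probe sets 7.94% were higher, 8.57% lower and 16.5% called in either direction. The members' median log2 difference was 1.20, against -0.09 over all tested probe sets (0.12 after median scaling).

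Sqle averaged 956 ± 270.2 in dwarf mice of 22 months (SD, n = 3), against 243.9 ± 97.3 in dwarf mice of 6 months (SD, n = 4), 4.00-fold higher (log2 difference 2.00 ± 0.28, limma adjusted p = 0.000685). The Nsdhl set 93868_at averaged 639.8 ± 178 at 22 months and 153.3 ± 32.4 at 6 months, 4.14-fold higher (2.05 ± 0.23, limma adjusted p = 0.000385). Every older dwarf mouse exceeded every younger one in both. The set 98631_g_at was 2.22-fold higher (1.15 ± 0.29, limma adjusted p = 0.0164), a call that was lost without dwarf animal 8 of 22 months (limma adjusted p = 0.0815), while 98630_at again did not change (0.09, limma adjusted p = 0.82).

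Msmo1 averaged 1112 ± 88.3 in dwarf mice of 22 months and 361.2 ± 176 in dwarf mice of 6 months, 3.32-fold higher (log2 difference 1.73 ± 0.27, limma adjusted p = 0.00137). The Sc5d set 102768_i_at averaged 1709 ± 303 at 22 months and 519.6 ± 132 at 6 months, 3.33-fold higher (1.74 ± 0.21, limma adjusted p = 0.000435), and 102769_f_at was 2.37-fold higher (1.25 ± 0.23, limma adjusted p = 0.00311). Dhcr7, which had not passed between the genotypes at either age, averaged 715.7 ± 117 in dwarf mice of 22 months and 255.8 ± 69.2 in dwarf mice of 6 months, 2.86-fold higher (1.52 ± 0.22, limma adjusted p = 0.000964). In each of these sets the ages did not overlap.

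Lss averaged 833 ± 61.6 in dwarf mice of 22 months and 422 ± 41.6 in dwarf mice of 6 months, a narrow spread on both sides and a 1.98-fold increase (log2 difference 0.98 ± 0.26, limma adjusted p = 0.0183). This call was lost without dwarf animal 4 or 8 of 22 months (limma adjusted p = 0.0588 and 0.0597). Cyp51 averaged 221.9 ± 15.2 at 22 months and 131.7 ± 62.9 at 6 months, with no overlap but without passing (0.88 ± 0.36, limma adjusted p = 0.102). Hsd17b7 (0.21, limma adjusted p = 0.635) and Fdft1 (-0.34, limma adjusted p = 0.236) did not pass either. Older values lay wholly above younger ones in 9 of the 12 members, against 12.6% of all tested probe sets.

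Measures of RNA also differed by age, so these age differences were fitted again with each measure as a covariate. The labels give no batch, so in both genotypes age and any difference in RNA or array handling between the ages cannot be told apart. The 3' to 5' ratio of beta-actin was 1.25 to 1.57 in dwarf mice of 22 months and 2.29 to 2.69 in dwarf mice of 6 months, with no overlap. With the mean of the beta-actin and Gapdh log2 ratios as a covariate 3 of the 8 calls held. They were those of Sqle, the Nsdhl set 93868_at and the Sc5d set 102768_i_at. Msmo1 (1.68, limma adjusted p = 0.0691) and Dhcr7 (1.42, limma adjusted p = 0.0652) did not pass. Neither did the Sc5d set 102769_f_at (1.31 ± 0.34, limma adjusted p = 0.0858) or Lss (1.33 ± 0.36, limma adjusted p = 0.0975). Without the covariate these last sets had given 1.25 ± 0.23 and 0.98 ± 0.26, so both estimates and standard errors were larger with it. The estimate of the Nsdhl set 98631_g_at was 0.36 (limma adjusted p = 0.589). With the 18S signal as a covariate 6 calls held, Lss and 98631_g_at being lost. Among the cell type markers with age in dwarf mice, 4 of 7 hepatocyte markers, 1 of 4 endothelial markers (Stab1) and 1 of 4 stellate cell markers (Col1a2) were lower at 22 months. The erythroid marker Alas2 was higher, by 2.59-fold (limma adjusted p = 0.00161). Among all tested probe sets 8.57% were lower and 7.94% higher with age in dwarf mice. The part of these markers in the result was not tested.

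The same ages were compared in wild type mice. The comparison called 4 of the 12 probe sets, all higher at 22 months, in Sqle, Lss, Sc5d and Dhcr7, where 1.45% of all tested probe sets were higher, 1.04% lower and 2.49% called in either direction. Sqle averaged 4033 ± 316 in wild type mice of 22 months (SD, n = 3), against 725.6 ± 206 in wild type mice of 6 months (SD, n = 4), 5.71-fold higher (log2 difference 2.51 ± 0.28, limma adjusted p = 0.00036). The lowest of the older mice, at 3702.6, was far above the highest younger one, at 998.5. Dhcr7 averaged 1122 ± 174 at 22 months and 363.6 ± 44 at 6 months, 3.08-fold higher (1.62 ± 0.22, limma adjusted p = 0.00152), with no overlap.

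The other calls in wild type mice were less firm. Lss averaged 1269 ± 399 in wild type mice of 22 months and 542.9 ± 173 in wild type mice of 6 months, 2.36-fold higher (log2 difference 1.24 ± 0.26, limma adjusted p = 0.0224), and lost its call without wild type animal 1 or 2 of 22 months (limma adjusted p = 0.101 and 0.0736). The Sc5d set 102768_i_at averaged 2158 ± 340.3 at 22 months and 1122 ± 231 at 6 months, 1.93-fold higher (0.95 ± 0.21, limma adjusted p = 0.0282). It lost its call without wild type animal 1, 2, 82, 84 or 86, with limma adjusted p between 0.066 and 0.113, and the second Sc5d set did not pass (0.49, limma adjusted p = 0.275).

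Cyp51 (log2 difference 0.99 ± 0.36, limma adjusted p = 0.161) and Msmo1 (0.74 ± 0.27, limma adjusted p = 0.164) did not overlap between the ages in wild type mice and did not pass. Msmo1 ran from 1166.1 to 1650.5 at 22 months and from 727.5 to 1041.7 at 6 months. The Nsdhl sets 93868_at (0.58, limma adjusted p = 0.212) and 98631_g_at (0.72, limma adjusted p = 0.21) did not pass, and neither did Hsd17b7 (0.36) or Fdft1 (0.24). Older values were wholly above younger ones in 7 of the 12 members, against 8.12% of all tested probe sets. The median log2 difference of the members was 0.73, against -0.02 over all tested probe sets.

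With the 18S signal as a covariate only Sqle kept its call with age in wild type mice (log2 difference 2.53, limma adjusted p = 0.00883), Dhcr7 reaching a limma adjusted p of 0.0508. Wild type animal 88, the 6-month array with the high 18S signal, read 651.1 for Sqle, inside the range of the other wild type mice of 6 months.

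Whether age acted differently by genotype was tested as the genotype difference at 22 months minus that at 6 months. It was called for 1 of the 12 probe sets, the Nsdhl set 93868_at, where 2.19% of all tested probe sets were called, 1.54% higher and 0.65% lower. There the dwarf deficit was smaller at 22 months by 1.47 ± 0.33 on the log2 scale (limma adjusted p = 0.0319). The other Nsdhl sets gave 0.43 (98631_g_at, limma adjusted p = 0.694) and 0.16 (98630_at), and the call was lost without any 1 of 8 of the 14 arrays (limma adjusted p up to 0.0954), without the filter on low signal (0.0878) and with the 3' to 5' ratio as a covariate (0.133).

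For the other members a change in the genotype difference with age was not shown. Msmo1 gave 0.99 (limma adjusted p = 0.23), which passed without dwarf animal 85 (limma adjusted p = 0.0287), and the Sc5d set 102768_i_at gave 0.79 (limma adjusted p = 0.232). Sqle, called at both ages, gave -0.51 ± 0.39 (limma adjusted p = 0.605). Averaged over both ages, 8 of the 12 probe sets were lower in dwarf mice, from the same 5 genes as at 6 months and Dhcr7, against 5.62% lower, 4.65% higher and 10.3% called over all tested probe sets. Sqle had the largest averaged decrease, 3.63-fold (log2 difference -1.86 ± 0.20, limma adjusted p = 9.37e-06). Cyp51 was 2.38-fold lower (-1.25 ± 0.25, limma adjusted p = 0.00391) and Dhcr7 1.51-fold lower (-0.60 ± 0.16, limma adjusted p = 0.0209), the call of Dhcr7 being lost without wild type animal 1 or dwarf animal 3 or 4 of 22 months (limma adjusted p of 0.0614, 0.0571 and 0.064).

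The genes before and around the sterol steps were counted from lists of known pathway genes. Of 9 listed genes of the mevalonate and isoprenoid steps, which supply farnesyl diphosphate, 6 were tested, and 3 of them were lower in dwarf mice of 6 months: Hmgcs1, Idi1 and Fdps. Among all tested probe sets 6.95% were lower and 6.37% higher at this age. Hmgcs1, the synthase of hydroxymethylglutaryl-CoA, averaged 806.7 ± 197 in dwarf and 1931 ± 408 in wild type mice of 6 months, 2.41-fold lower in dwarf mice (log2 difference -1.27 ± 0.21, limma adjusted p = 0.000658). Idi1, the isopentenyl diphosphate isomerase, was 3.97-fold lower (-1.99 ± 0.28, limma adjusted p = 0.000207). Fdps, which makes the farnesyl diphosphate used by Fdft1, averaged 1814 ± 971 in dwarf and 4883 ± 1047 in wild type mice of 6 months, 2.98-fold lower (-1.57 ± 0.30, limma adjusted p = 0.00229). Fdps and Sqle, the genes on either side of Fdft1 in the pathway, were both lower where the values of Fdft1 were all higher.

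At 22 months 1 of these 6 genes passed, where 1.56% of all tested probe sets were lower and 1.37% higher. This was Idi1, at 1172.9 to 1790.8 in dwarf and 3172.9 to 4810.8 in wild type mice (2.61-fold lower in dwarf mice, limma adjusted p = 0.028). Its call was lost without any 1 of wild type animals 1 and 2 and dwarf animals 3, 4 and 8 (limma adjusted p between 0.054 and 0.159). With age in dwarf mice 4 of the 6 were higher, where 7.94% of all tested probe sets were higher and 8.57% lower. Hmgcs1 was higher by 1.51 ± 0.22, Idi1 by 1.72 ± 0.31, Fdps by 1.75 ± 0.32 and Mvd by 1.79 ± 0.45 on the log2 scale. In dwarf mice of 6 months Mvd lay around the floor of 54.9, at 49.6 to 61.2, and so below the filter level of 184.8. The size of its difference therefore depends on the floor. Ggps1, which leads away from sterols towards other isoprenoids, was lower (log2 difference -1.77, limma adjusted p = 0.0134). Ggps1 read 38.9 to 120.4 in dwarf mice of 22 months, so its lowest value there was set to the floor of 54.9. Each of these 5 age calls was lost with a covariate for RNA measures that differed by age. With the 3' to 5' ratio Hmgcs1 gave 1.5 (limma adjusted p = 0.0545), Fdps 1.83 (0.0904), Ggps1 -2.02 (0.14) and Mvd 0.87 (0.44). With the 18S signal Idi1 gave 1.52 (limma adjusted p = 0.0601), Fdps 1.58 (0.0611), Ggps1 -1.78 (0.11) and Mvd 1.27 (0.216). Over all tested probe sets the 1193 calls with age in dwarf mice fell to 51 with the 3' to 5' ratio and to 110 with the 18S signal.

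With age in wild type mice 1 gene of the 6 was higher, where 1.45% of all tested probe sets were higher and 1.04% lower. This was Mvd, the decarboxylase of mevalonate diphosphate, at 281.1 to 620.3 in wild type mice of 22 months and 29.6 to 216.8 in wild type mice of 6 months (log2 difference 2.00 ± 0.45, limma adjusted p = 0.0286). That call was lost without wild type animal 1, 2, 84 or 86 (limma adjusted p between 0.0728 and 0.123), with the 18S covariate (1.42, limma adjusted p = 0.406) and with the 3' to 5' covariate (limma adjusted p = 0.0607). The lowest Mvd value in wild type mice of 6 months, 29.6, lay below the floor of 54.9 and was set to it. Mvd also lost its call with age in dwarf mice without dwarf animal 4 or 8 of 22 months, as did Ggps1 without animal 4. Mvk, the mevalonate kinase, passed in none of these 4 comparisons.

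**Figure D3:**
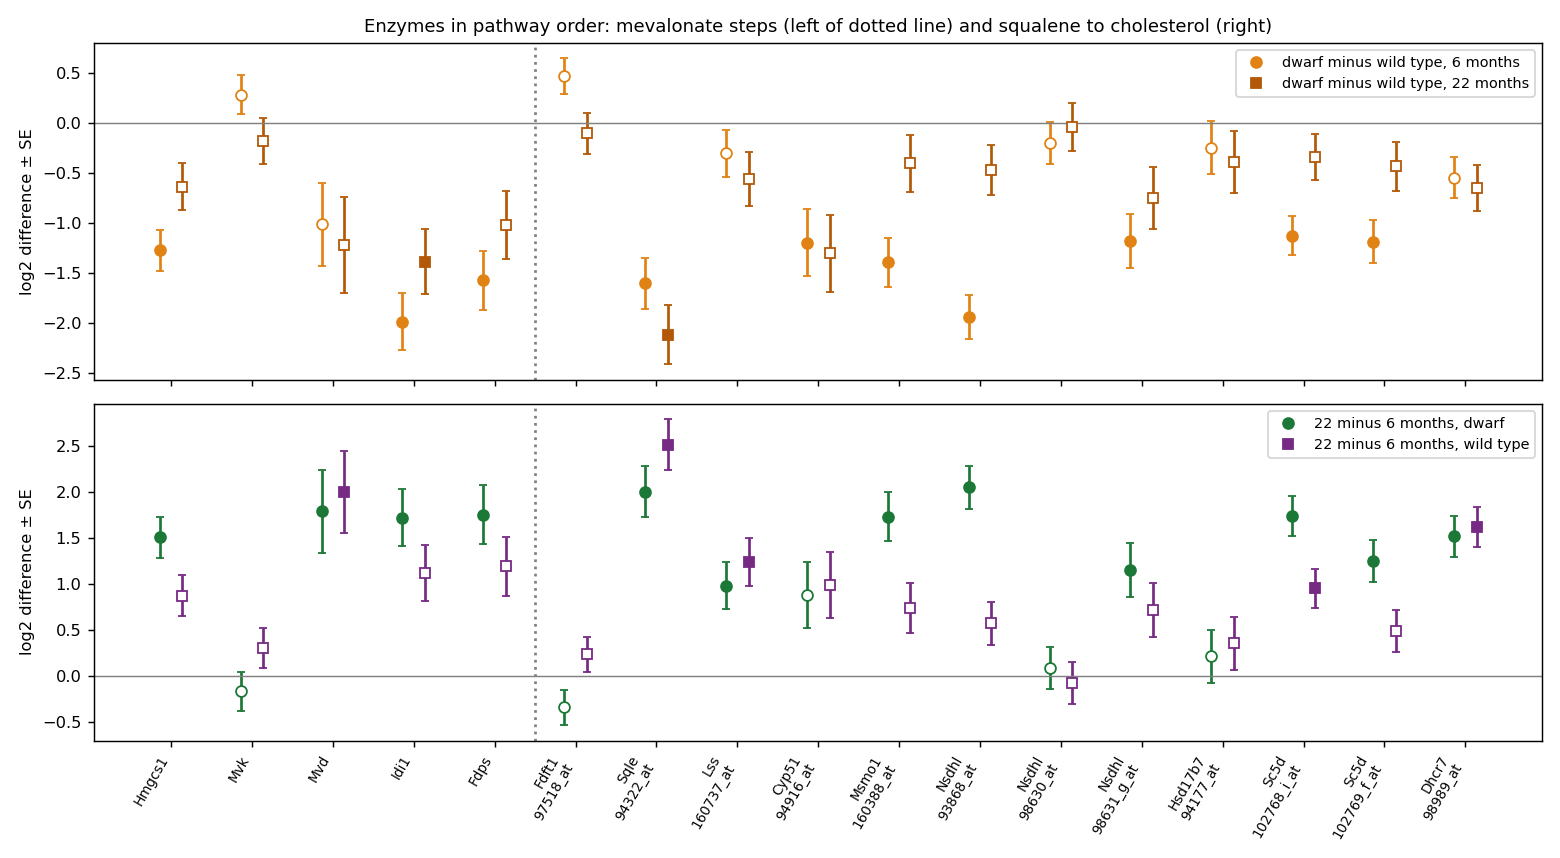
Log2 differences ± SE from limma for 5 mevalonate genes and the 12 member probe sets in the order of the pathway, with the genotype differences above and the age differences below. Filled marks have an adjusted p under 0.05. Fdft1 stands apart between Fdps and Sqle, at 0.47 at 6 months where its neighbours are at -1.57 and -1.61.

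Other sterol genes followed in part, and their counts and those of the lists below are to be read against the same shares. At 6 months 6.95% of all tested probe sets were lower and 6.37% higher, and with age in dwarf mice 8.57% were lower and 7.94% higher. Of 3 tested sterol ring enzymes outside the members, Ebp, the isomerase that precedes Sc5d, was lower in dwarf mice of 6 months (1.70-fold, limma adjusted p = 0.00667), and it was higher with age in dwarf mice (log2 difference 0.62 ± 0.18, limma adjusted p = 0.0304). The age call of Ebp was lost without dwarf animal 3, 4, 87 or 89, with limma adjusted p between 0.0737 and 0.14, and with the 18S or 3' to 5' covariate, at 0.2 and 0.136. Both electron donors tested were called at 6 months in opposite directions, Cyb5r3, the reductase of cytochrome b5, being lower in dwarf mice (-0.75 ± 0.18, limma adjusted p = 0.0123) and Cyb5a, cytochrome b5 itself, higher (0.54 ± 0.12, limma adjusted p = 0.00565). After median scaling Cyb5a gave 0.34 and did not pass (limma adjusted p = 0.0757).

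Of 7 listed genes that control the pathway 2 were tested. Srebf1, which encodes the SREBPs that act mainly on fatty acid genes, averaged 2362 ± 655 in dwarf and 6427 ± 1724 in wild type mice of 6 months, 2.74-fold lower in dwarf mice (log2 difference -1.45 ± 0.23, limma adjusted p = 0.00056). At 22 months it averaged 4490 ± 254 in dwarf and 5022 ± 1832 in wild type mice (-0.10, limma adjusted p = 0.967), and the change in the genotype difference was 1.35 (limma adjusted p = 0.0623). With age in dwarf mice it was higher by 0.97 ± 0.25 (limma adjusted p = 0.0173), a call lost without dwarf animal 4, 8 or 87 (limma adjusted p of 0.0575, 0.0533 and 0.0526), with the 18S covariate (0.87, limma adjusted p = 0.16) and with the 3' to 5' covariate (0.72, limma adjusted p = 0.304). Mbtps1, the protease that cuts SREBPs, was not called. Insig1 did not pass the filter, and Srebf2 was not analysed here.

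Among 6 tested genes of uptake and trafficking, Scp2, a sterol carrier protein, was lower (log2 difference -0.97 ± 0.23, limma adjusted p = 0.011) and Npc1, a transporter that moves cholesterol out of lysosomes, higher (1.31 ± 0.31, limma adjusted p = 0.0107) in dwarf mice of 6 months. With age in dwarf mice Scp2 was higher by 1.13 and Npc1 lower by 1.05 on the log2 scale, and in wild type mice Npc2, the partner of Npc1, was higher by 0.87. The age call of Scp2 was lost with the 3' to 5' covariate (limma adjusted p = 0.129). That of Npc1 was lost with the 18S covariate (limma adjusted p = 0.28), with the 3' to 5' covariate (0.402), after median scaling (0.0978) and without dwarf animal 3, 8, 87 or 89 or wild type animal 84. That of Npc2 was lost with the 18S covariate (limma adjusted p = 0.19) and without wild type animal 1, 2, 84 or 86. Of 4 tested genes of efflux and esterification, Abcg1, a sterol exporter, was higher in dwarf mice of 6 months (0.59 ± 0.18, limma adjusted p = 0.0431), a call lost in 9 of the 14 fits without 1 array and after median scaling (limma adjusted p = 0.164).

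The enzymes also varied between mice of the same group. Each log2 value was taken relative to its group mean, and the mean of Sqle, Cyp51, Msmo1 and Sc5d, the genes whose brightest probe set was called at 6 months, served as a profile over the 14 arrays. Dwarf animal 85 lay highest, 0.68 above its group, and dwarf animals 89 and 87 lowest, at -0.42 and -0.34. Among 5464 other genes the one most like this profile was Fdps, with Pearson's r = 0.925 and Spearman's rho = 0.96 over the 14 arrays, and r = 0.889 without animals 85 and 89. The next were Unc5c (r = 0.869), Bmp1 (0.85), Nynrin (0.822), Clcn2 (0.811) and Myl1 (0.809). Without animals 85 and 89 Unc5c stood above Fdps, at 0.914. Nynrin, Clcn2, Bmp1 and Myl1 then gave 0.749, 0.674, 0.646 and 0.455. Of the listed pathway genes, Cyb5r3 had r = 0.625, Hmgcs1 0.598, Ebp 0.553 and Idi1 0.548, while Mvd had 0.177 and others were negative, Cyb5a at -0.403, Mvk at -0.385, Npc2 at -0.333, Npc1 at -0.321 and Scp2 at -0.318. These are descriptions: the points share the scaling of their array, and the highest of so many candidates is high in part by selection.

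**Figure D4:**
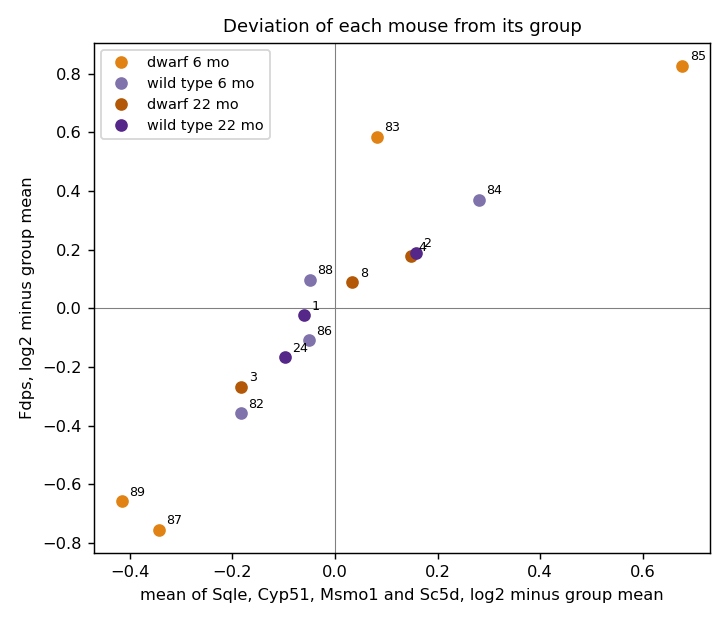
Each point is 1 of the 14 mice, labelled with its animal number. The horizontal axis gives the mean log2 deviation of Sqle, Cyp51, Msmo1 and Sc5d from the group mean and the vertical axis the same for Fdps. Dwarf animal 85 stands at 0.68 and 0.83, and dwarf animals 87 and 89 at -0.34 and -0.75 and at -0.42 and -0.66.

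Between the members themselves such likeness was uneven. Of the 36 pairs of member genes, 6 had r over 0.5 and 11 had a negative r, with a median of 0.226, where 7.17% of all gene pairs exceeded 0.5. Sqle and Msmo1 gave r = 0.741, and Lss and Hsd17b7 r = 0.701. The dwarf animal 85 was the highest of its group in Sqle, Cyp51, Msmo1, Dhcr7, the Nsdhl set 98631_g_at and the Sc5d set 102769_f_at, and in none of the other 6 probe sets.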

How the data were processed

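Liver RNA of 14 mice was labelled and put on Affymetrix arrays, 1 mouse per array. Values are probe set intensities that the authors deposited on a linear scale, and per the submitters' processing notes they come from MAS5, whose version and settings are not given in the sources used here. The 2% trimmed mean of every array was 500.4, so the values were used as deposited. Groups came from the sample titles, which give genotype and age.

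Values below the pooled 25th percentile (54.9) were set to it and log2 was taken. After 66 control probe sets were left out, 7227 of 12488 probe sets exceeded the pooled median (184.8) on at least 3 arrays. A mean per group was fitted to all 14 arrays with limma 3.58.1 (eBayes with an intensity trend, R 4.3.3), and p-values were adjusted by Benjamini-Hochberg over all 7227 within each of 6 comparisons, with a threshold of 0.05. The number of arrays limits the precision.

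Every probe set of a member gene is described. Other pathway genes come from lists, each by its tested probe set with the highest mean, with values for those called. Likeness is Pearson's r of deviations from group means. The alternatives changed the scaling (quantile, median), the floor (or a pseudocount of 32 in its place), the filter, the variance model and the weights of arrays, added 18S or the 3' to 5' ratio as a covariate, fitted only the groups compared, or dropped 1 array at a time. The 3' to 5' covariate was the mean of the log2 ratios of beta-actin and Gapdh. The same alternatives for the other pathway genes were chosen after seeing the data. Members and lists were chosen with earlier results of these data known. Promoter sequences are from RefSeq (GRCm38.p6), which was used for names and sequences alone, since no build is tied to the arrays. Some listed genes are not reported here.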

Additional observations from a re-analysis of the deposited data

Results flagged for a closer look

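A change of the genotype difference with age was called for 1 member probe set, the Nsdhl set 93868_at. A test of the change itself gave a log2 value of 1.47 ± 0.33 (limma adjusted p = 0.0319). The call was lost in 8 of the 14 fits without 1 array (limma adjusted p up to 0.0954), without the filter (0.0878), without the intensity trend (0.0551) and with the 3' to 5' covariate (0.133). The signal averaged 639.8 ± 178 in dwarf and 872.6 ± 160.3 in wild type mice of 22 months (SD, n = 3 each), and 153.3 ± 32.4 in dwarf and 589.1 ± 129 in wild type mice of 6 months (SD, n = 4 each). The other Nsdhl sets gave 0.43 (98631_g_at) and 0.16 (98630_at) and did not pass. Dixon's ratio marked no mouse as an outlier in the 24 groups of 4 examined. The largest ratio was 0.794, for Sqle in dwarf mice of 6 months, where animal 85 is the highest. With 4 mice the ratio marks only extreme values, so it cannot show that no mouse stood apart, and the groups of 3 were not examined.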

How the results depend on the processing

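Of the 29 member differences that were called, 18 held in every alternative, and in 743 checks the call was lost 50 times, with no change of direction. Of the 43 that were not called, 37 stayed so, and 11 of 1093 checks gained a call. At 6 months the count of 7 lower member probe sets ran from 6 to 8 with each array left out in turn, and for the average over ages the count of 8 ran from 7 to 9. At 22 months the count of 1 was 2 with array weights and 2 with the compared groups alone, the addition being Cyp51, and 1 to 2 with each array left out. With age in dwarf mice the count of 8 was 3 with the 3' to 5' ratio as a covariate and 6 to 8 with each array left out. With age in wild type mice the count of 4 was 2 without the filter, 1 with the 18S covariate and 2 to 4 with each array left out. For the change of the genotype difference the count of 1 was 0 without the filter, 0 without the intensity trend, 0 with the 3' to 5' covariate and 0 to 2 with each array left out. The cause of these changes was not tested.

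Of the other pathway genes, 30 differences were called and lost the call in 100 of 768 checks, 108 were not called and gained it in 36 of 2756, and none reversed. These checks were chosen after seeing the data.

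Over all probe sets, the 962 calls at 6 months were 630 with the compared groups alone. The 212 at 22 months were 442 with array weights and 127 without dwarf animal 3. The 1193 with age in dwarf mice were 110 with the 18S covariate, 51 with the 3' to 5' covariate and 521 without dwarf animal 3 of 22 months. The 180 with age in wild type mice were 106 with median scaling, 102 without the filter, 90 without the trend, 472 with array weights, 9 with the 18S covariate, 76 with the compared groups alone, 60 without wild type animal 1 and 457 without wild type animal 88. The 158 of the interaction were 69 without the filter, 64 without the trend, 57 with the 3' to 5' covariate and 48 without dwarf animal 3. Median scaling moved the share of calls that were higher to 18.2% (47.8% as deposited) at 6 months, 79.3% (48.1%) with age in dwarf mice, 89.7% (70.3%) for the interaction and 25.5% (45.3%) for the average. No paired analysis was run, because the labels state no pairing of animals. Cyp51 at 6 months, with 1 dwarf value below the floor, gave -1.23 with a floor at the 10th percentile and -1.01 with the pseudocount, and kept its call.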
